A study of Mus musculus with 12 samples.

Results

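The Cyp4a genes encode cytochrome P450 enzymes that add a hydroxyl group to the terminal (omega) carbon of fatty acids. All 6 genes of the subfamily given here, Cyp4a10, Cyp4a12a, Cyp4a12b, Cyp4a14, Cyp4a31 and Cyp4a32, were found by symbol among the 35275 genes of a liver RNA-seq table, and all 6 were among the 12466 genes tested. The table holds 12 libraries, 1 per mouse, and the 12 male mice form 4 groups of 3. Wild-type (WT) mice were fed chow or a methionine and choline deficient (MCD) diet, and so were Pctp-/- mice. Pctp-/- mice carry a deletion, in every tissue, of the gene for phosphatidylcholine transfer protein (PC-TP), a soluble carrier of phosphatidylcholine. The MCD diet is used to induce a fatty and injured liver. The age of these mice, the time on the diet and their feeding state before the liver was taken are not given in the sources used here.

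Omega-hydroxylation is the first step of a route by which the liver turns fatty acids into dicarboxylic acids, which are then shortened in peroxisomes. Cyp4a enzymes sit in the endoplasmic reticulum and take electrons from P450 oxidoreductase, the product of Por. Cyp4a10 and Cyp4a14 are widely used as target genes of the fatty acid receptor PPARalpha in mouse liver, whereas Cyp4a12a is known as a male-typical liver gene that makes 20-hydroxyeicosatetraenoic acid from arachidonic acid.

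The 6 genes lie in a cluster on chromosome 4 (GRCm38/mm10, GENCODE M21), within chr4:115299046-115621602, a span of 322.6 kb with 13 annotated genes. Other genes lie between them, among them the pseudogene Cyp4a30-ps, between Cyp4a12a and Cyp4a12b, and Cyp4a30b, between Cyp4a12b and Cyp4a14. In order, Cyp4a12a (ENSMUSG00000066071) lies at chr4:115299046-115332815, Cyp4a12b (ENSMUSG00000078597) at chr4:115411624-115439034, Cyp4a14 (ENSMUSG00000028715) at chr4:115486200-115496142, Cyp4a10 (ENSMUSG00000066072) at chr4:115518264-115533649, Cyp4a31 (ENSMUSG00000028712) at chr4:115563649-115579015 and Cyp4a32 (ENSMUSG00000063929) at chr4:115600969-115621602. Cyp4a14 is on the minus strand and the other 5 are on the plus strand. The coding sequences fall into 3 branches. Cyp4a12a and Cyp4a12b were 98.49% identical, differing at 23 of 1524 bases, and Cyp4a10 was 97.18% identical to Cyp4a32 and 96.59% identical to Cyp4a31. Cyp4a14 stood alone, at 75.02 to 75.94% identity to each of the others.

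The stretch of 90 coding bases around the codon of the cysteine that holds the haem iron is shown for each gene, since it tells the 3 branches apart and shows which genes cannot be told apart by a short read there. Each is printed 5′ to 3′ on the coding strand, capitals mark bases that differ from Cyp4a10, and each stretch crosses an intron in the genome.
Cyp4a10 (chr4:115529478-115532579, plus strand): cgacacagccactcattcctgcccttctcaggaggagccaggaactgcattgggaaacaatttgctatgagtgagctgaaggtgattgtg
Cyp4a31 (chr4:115574926-115577984, plus strand): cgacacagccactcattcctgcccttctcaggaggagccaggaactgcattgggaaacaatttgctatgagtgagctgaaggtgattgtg
Cyp4a32 (chr4:115614856-115621482, plus strand): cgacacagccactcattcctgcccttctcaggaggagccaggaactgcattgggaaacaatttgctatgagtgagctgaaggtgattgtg
Cyp4a12a (chr4:115328962-115331882, plus strand): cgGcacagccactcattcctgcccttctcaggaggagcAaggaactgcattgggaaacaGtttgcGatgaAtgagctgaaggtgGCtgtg
Cyp4a12b (chr4:115435216-115438105, plus strand): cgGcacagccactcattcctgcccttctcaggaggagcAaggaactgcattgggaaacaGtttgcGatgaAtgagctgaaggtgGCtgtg
Cyp4a14 (chr4:115487263-115489829, minus strand): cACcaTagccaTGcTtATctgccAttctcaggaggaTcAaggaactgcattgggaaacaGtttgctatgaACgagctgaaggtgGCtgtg

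Cyp4a10, Cyp4a31 and Cyp4a32 were identical over this stretch, as were Cyp4a12a and Cyp4a12b, which differed from Cyp4a10 at 7 bases. Cyp4a14 differed from Cyp4a10 at 16 bases. The close genes do differ elsewhere. The 60 coding bases in which Cyp4a10, Cyp4a31 and Cyp4a32 differ most are shown because reads from such places separate Cyp4a32 from its neighbours. Capitals again mark bases that differ from Cyp4a10, and all lie in 1 exon on the plus strand.
Cyp4a10 (chr4:115519640-115519699): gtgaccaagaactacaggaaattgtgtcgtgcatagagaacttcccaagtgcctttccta
Cyp4a31 (chr4:115565020-115565079): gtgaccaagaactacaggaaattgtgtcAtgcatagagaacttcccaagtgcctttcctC
Cyp4a32 (chr4:115602270-115602329): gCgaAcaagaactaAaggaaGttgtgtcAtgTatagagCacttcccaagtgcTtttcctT

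Cyp4a32 differed from Cyp4a10 at 9 of these bases and Cyp4a31 at 2. Of all 150-base windows of the annotated transcripts, 4.34% of those of Cyp4a10, 4.20% of Cyp4a31, 7.97% of Cyp4a32 and 0% of Cyp4a14 also occurred in another gene of the cluster. For Cyp4a12a and Cyp4a12b these shares were 25.6% and 25.9%. With 50-base windows they were 30.5% for Cyp4a10, 20.1% for Cyp4a31, 46.8% for Cyp4a32 and 0.245% for Cyp4a14. For Cyp4a12a and Cyp4a12b they were then 48.9% and 49.45%. How the authors assigned reads that match more than 1 gene is not given in the sources used here. The split of reads within the Cyp4a12 pair, and among Cyp4a10, Cyp4a31 and Cyp4a32, is therefore uncertain. Sums over close genes are given beside the single values.

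Levels are FPKM, the number of sequenced fragments of a gene per unit of its length and of library size, as the authors deposited them. Uniquely mapped reads per library were 30486576 to 55179468. The chow and MCD libraries also differed in sequencing measures, with 77.6 to 79.4% of reads uniquely mapped on chow and 85.7 to 87.5% on MCD and with 4.07 to 4.84% and 6.50 to 7.40% mapped to several places, so the diet and the sequencing of its set of libraries cannot be told apart. The genotypes were compared within each set. The targeted gene, Pctp, was at 1.21 to 2.65 FPKM in WT and 0.330 to 0.566 in Pctp-/- mice on chow, and at 3.61 to 7.90 and 0.156 to 0.329 on MCD. Every Pctp-/- value was below every WT value on its diet. The log2 fold change of Pctp was -1.07 on chow (limma adjusted p = 0.15) and -2.33 on MCD (limma adjusted p = 6.2e-04).

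On the MCD diet the make-up of Cyp4a RNA changed. Cyp4a14, Cyp4a10 and Cyp4a31 rose in both genotypes, Cyp4a12a and Cyp4a12b fell in both, and Cyp4a32 fell in WT mice and did not pass the test in Pctp-/- mice. In WT livers all 6 genes passed the test, 3 higher and 3 lower on MCD, where 57.0% of all tested genes were called, 34.5% as higher and 22.5% as lower. In Pctp-/- livers 5 of 6 passed, 3 higher and 2 lower, where 50.3% of all tested genes were called, 26.0% as higher and 24.4% as lower. The tests were those of a limma fit to log2(FPKM + 1), with Benjamini-Hochberg adjustment over all tested genes, and a gene was called at an adjusted p under 0.05. Across all tested genes in WT mice the log2 fold changes had a median of 0.11, and relative to it the 6 genes changed by -3.29 to 5.16. With median-of-ratios scaling that median was -0.0013, and the calls of all genes in WT mice split into 3546 higher and 3527 lower in place of 4300 and 2810. Fold changes on the log2(FPKM + 1) scale understate the change of genes with low FPKM. Cyp4a31 passed the filter of a mean FPKM of at least 0.5 only through its MCD libraries and Cyp4a12b only through its chow libraries, so both had to differ by diet. Without them 4 of 4 genes were called in WT mice and 3 of 4 in Pctp-/- mice. In bulk liver RNA, fewer cells that express a gene and less RNA per cell cannot be told apart.

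**Figure D1:**
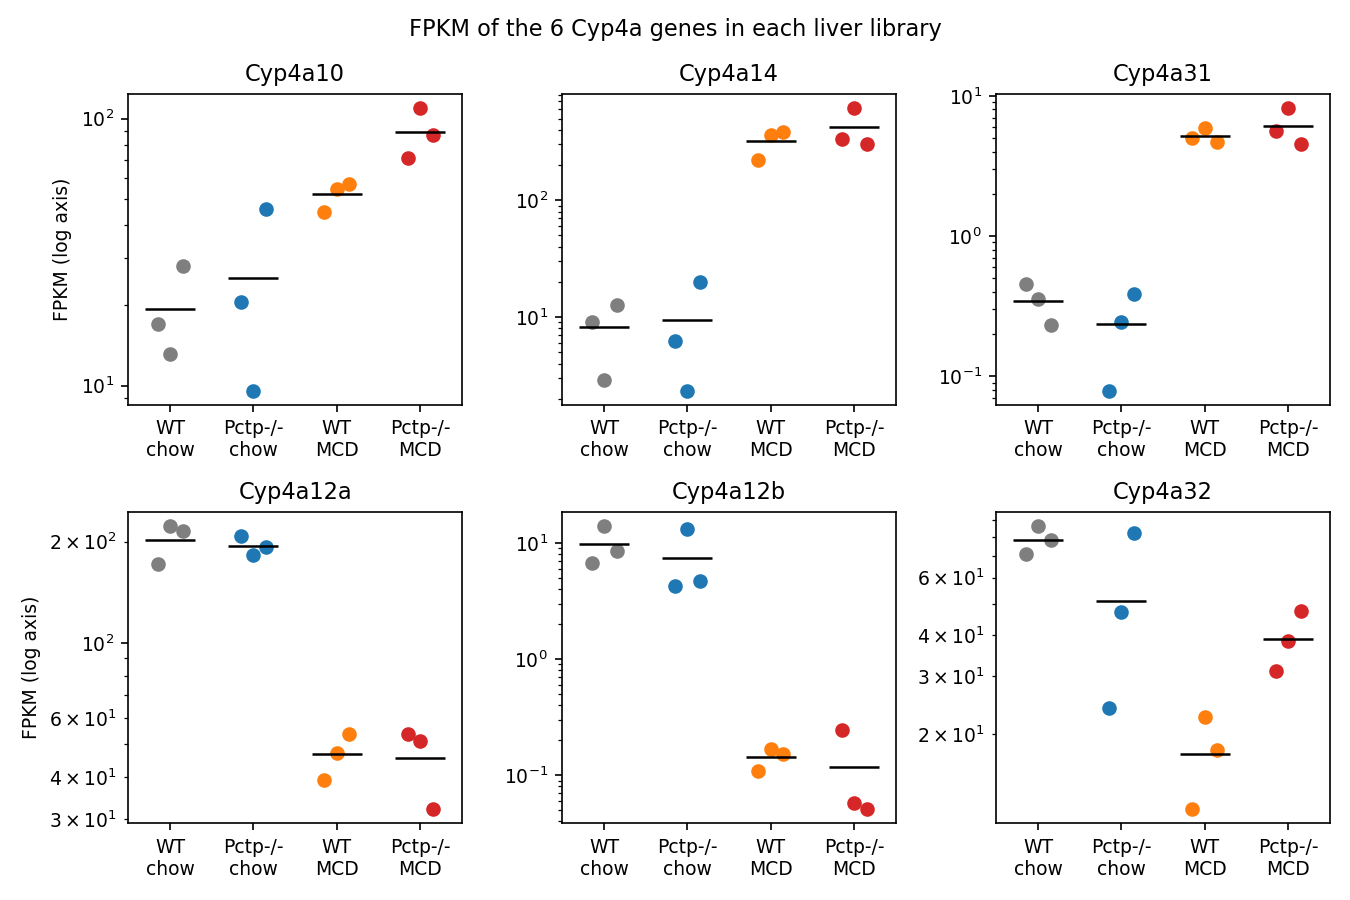
FPKM on a log axis in each of the 12 liver libraries for the 6 Cyp4a genes, with 1 point per mouse and a line at the mean of 3 mice in each group. Cyp4a10, Cyp4a14 and Cyp4a31 are higher in the MCD groups, Cyp4a12a and Cyp4a12b are lower, and Cyp4a32 is lowest in WT mice on MCD.

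Cyp4a14 showed the largest rise of the 6. Its FPKM in the 3 WT mice was 9.10, 2.87 and 12.8 on chow and 220.4, 360.3 and 384 on MCD. In the Pctp-/- mice it was 6.23, 2.35 and 19.9 on chow and 334, 619.6 and 305 on MCD. Every MCD library was above every chow library. The group means were 8.26 ± 5.02 and 322 ± 88.6 FPKM in WT mice (SD, n = 3) and 9.49 ± 9.21 and 419 ± 174 FPKM in Pctp-/- mice (SD, n = 3), ratios of 39.0 and 44.2. The log2 fold change was 5.27 in WT (SE 0.59, limma adjusted p = 1.7e-05) and 5.65 in Pctp-/- mice (SE 0.59, limma adjusted p = 1.4e-05). Cyp4a14 ranked 12 from the top among the 12466 tested genes by log2 fold change in WT mice and 8 from the top in Pctp-/- mice.

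Cyp4a10, which encodes a lauric acid omega-hydroxylase, rose less and from a higher level. Its FPKM was 17.0, 13.1 and 28.1 in WT mice on chow and 44.8, 54.4 and 57.1 on MCD. In Pctp-/- mice it was 20.6, 9.58 and 46.0 on chow and 71.4, 110.0 and 87.2 on MCD. Within each genotype the diets did not overlap, but the highest Pctp-/- chow value lay inside the range of WT mice on MCD. The ratio of the group means was 2.68 in WT and 3.53 in Pctp-/- mice. On the log2 scale the change was 1.44 in WT (SE 0.42, limma adjusted p = 0.011) and 2.02 in Pctp-/- mice (SE 0.42, limma adjusted p = 0.0018). The WT call was lost without replicate 2 of the WT chow mice, with a log2 fold change of 1.21 and a limma adjusted p of 0.051.

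Cyp4a31 was near the lower limit of the table on chow and low on MCD. Its FPKM in WT mice was 0.452, 0.357 and 0.231 on chow and 4.999, 5.88 and 4.65 on MCD. The Pctp-/- values were 0.0792, 0.243 and 0.386 on chow and 5.60, 8.23 and 4.57 on MCD. Every MCD value was above every chow value, and the ratio of the group means was 14.9 in WT and 26.0 in Pctp-/- mice. On the log2 scale the change was 2.19 in WT (SE 0.17, limma adjusted p = 1.2e-06) and 2.50 in Pctp-/- mice (SE 0.17, limma adjusted p = 5.3e-07). With 0.1 in place of 1 added to the FPKM, these were 3.59 and 4.29. As Cyp4a31 passed the filter only through its MCD libraries, it had to rise to be tested. The p-values of this rise are therefore no separate support for it. Even on MCD the mean of Cyp4a31 was 5.17 ± 0.631 FPKM in WT mice (SD, n = 3), against 52.1 ± 6.45 for its close relative Cyp4a10 (SD, n = 3).

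Cyp4a12a, the most abundant of the 6 on chow, fell to about the same extent in both genotypes. Its FPKM was 172, 222 and 215 in WT mice on chow and 39.3, 47.2 and 53.6 on MCD. The Pctp-/- values were 208, 183 and 193 on chow and 53.7, 51.1 and 32.2 on MCD. The chow and MCD libraries were fully apart, with the chow mean 4.34 times the MCD mean in WT and 4.27 times in Pctp-/- mice. On the log2 scale the change was -2.10 in WT (SE 0.18, limma adjusted p = 2.2e-06) and -2.10 in Pctp-/- mice (SE 0.18, limma adjusted p = 2.8e-06). The difference of these changes between genotypes was -0.0047 with a 95% confidence interval from -0.56 to 0.55.

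Cyp4a12b fell further, from a lower level. Its FPKM in WT mice was 6.76, 14.0 and 8.53 on chow and 0.110, 0.169 and 0.154 on MCD. Among Pctp-/- mice it was 4.25, 13.2 and 4.74 on chow and 0.244, 0.0575 and 0.0512 on MCD. No MCD library reached the lowest chow library, and the chow mean was 67.7 times the MCD mean in WT and 62.8 times in Pctp-/- mice. On the log2 scale the change was -3.18 in WT (SE 0.32, limma adjusted p = 7.8e-06) and -2.76 in Pctp-/- mice (SE 0.32, limma adjusted p = 3.0e-05). With 0.1 added in place of 1, these were -5.28 and -5.02. As Cyp4a12b passed the filter only through its chow libraries, it had to fall to be tested. The p-values of this fall are therefore no separate support for it. Because 582 of the 150-base windows of each gene also occur in the other, the pair was also summed. The sum was 213 ± 30.4 FPKM on chow and 46.8 ± 7.22 on MCD in WT mice (SD, n = 3), a chow to MCD ratio of 4.54, and in every group it was nearly all Cyp4a12a.

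Cyp4a32 was the gene whose response differed most between the genotypes in size. Its FPKM in WT mice was 70.7, 86.2 and 78.2 on chow and 11.8, 22.5 and 17.8 on MCD, and the diets did not overlap. In Pctp-/- mice it was 23.97, 47.1 and 82.3 on chow and 31.1, 38.5 and 47.5 on MCD, and the MCD values lay inside the range of the chow values. The WT chow mean was 4.51 times the WT MCD mean, with a log2 fold change of -2.15 (SE 0.35, limma adjusted p = 2.5e-04). For Pctp-/- mice it was -0.23 (SE 0.35, limma adjusted p = 0.60), with a 95% confidence interval from -0.99 to 0.52. It rested on single Pctp-/- chow mice, at 0.19 without replicate 3 and -0.68 without replicate 1 (limma adjusted p = 0.056). The difference of the diet effect, Pctp-/- minus WT, was 1.92 (SE 0.49, unadjusted p = 0.0021, limma adjusted p = 0.13) and missed the threshold, so a difference between the genotypes was not called.

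**Figure D2:**
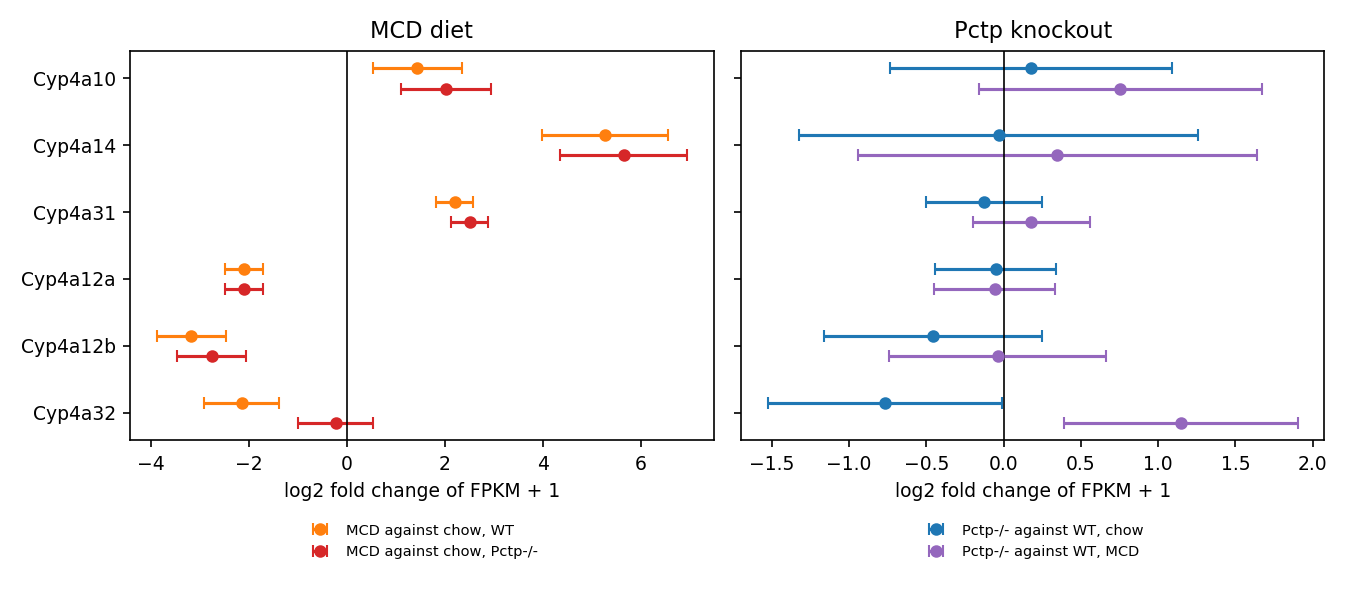
Log2 fold change of FPKM + 1 of each Cyp4a gene (points) with its 95% confidence interval (bars) from the limma fit, for MCD against chow in each genotype (left) and for Pctp-/- against WT on each diet (right). The diet intervals exclude 0 for all genes but Cyp4a32 in Pctp-/- mice, and on the right the estimates of Cyp4a32 lie on opposite sides of 0 on the 2 diets, at -0.77 and 1.15. Cyp4a31 and Cyp4a12b had to differ by diet to be tested.

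Between the genotypes no Cyp4a gene was called on either diet. On chow 0 of 6 passed the test in limma, 1 of 6 had an unadjusted p under 0.05, against 0.136% called and 6.98% at that unadjusted p over all tested genes. In 0 of 6 were the chow groups apart, against 10.6% of all tested genes. Cyp4a32 was the gene with the unadjusted p, at a log2 fold change of -0.77 (SE 0.35, limma adjusted p = 0.70), and its group means were 78.4 ± 7.76 FPKM in WT and 51.1 ± 29.4 in Pctp-/- mice (SD, n = 3). For the other 5 genes the log2 fold change on chow ran from -0.46 for Cyp4a12b to 0.18 for Cyp4a10. Cyp4a10 and Cyp4a14 had their highest chow value in replicate 3 of the Pctp-/- mice, and their lowest in replicate 2, so the spread among Pctp-/- chow mice covered that of WT mice. The signs of Cyp4a10 and Cyp4a14 on chow turned when single libraries were left out.

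On MCD 0 of 6 passed the test in limma, 1 of 6 had an unadjusted p under 0.05, against 0.818% called and 16.3% at that unadjusted p over all tested genes, so the members were near the background. The genotypes did not overlap for 2 of 6, Cyp4a32 and Cyp4a10, against 26.6% of all tested genes, and both were higher in Pctp-/- mice. Cyp4a32 was at 17.4 ± 5.36 FPKM in WT and 39.0 ± 8.18 in Pctp-/- mice (SD, n = 3), a ratio of 2.25, with a log2 fold change of 1.15 (SE 0.35, unadjusted p = 0.0063, limma adjusted p = 0.14). Its adjusted p ran from 0.053 to 0.38 over the alternatives tried. Cyp4a10 was at 52.1 ± 6.45 and 89.5 ± 19.4 FPKM (SD, n = 3), a ratio of 1.72, with a log2 fold change of 0.76 (SE 0.42, limma adjusted p = 0.40). For Cyp4a10 the limma adjusted p ran from 0.11 to 0.73 over the alternatives. The smallest two-sided p of an exact permutation test with 3 mice in each group is 0.1. Cyp4a14 was 1.30 times as high in Pctp-/- as in WT mice on MCD by its mean, with overlapping values and a 95% confidence interval of its log2 fold change from -0.94 to 1.64, and for Cyp4a12a the interval was -0.45 to 0.34.

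Cyp4a10, Cyp4a31 and Cyp4a32 are close in sequence, so the share of each in their sum depends on read assignment, and the sum was taken as well. In WT mice it was 98.1 ± 9.29 FPKM on chow and 74.6 ± 11.4 on MCD (SD, n = 3). The Pctp-/- sums were 76.7 ± 45.4 on chow and 135 ± 24.6 on MCD (SD, n = 3). On MCD every Pctp-/- sum was above every WT sum, with a ratio of 1.80, while on chow the genotypes overlapped. Within the sum the 2 abundant genes traded places, since Cyp4a32 exceeded Cyp4a10 in every chow library and Cyp4a10 exceeded Cyp4a32 in every MCD library.

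The difference of the MCD effect between Pctp-/- and WT mice was called for 0 of 6 genes in limma, with 1 of 6 at an unadjusted p under 0.05, which was Cyp4a32. Over all tested genes 0.0963% were called and 15.1% had such an unadjusted p. The other estimates were 0.58 for Cyp4a10 (95% confidence interval -0.72 to 1.87), 0.38 for Cyp4a14 (-1.45 to 2.21), 0.31 for Cyp4a31 (-0.22 to 0.84) and 0.42 for Cyp4a12b (-0.57 to 1.41). These intervals leave room for differences of more than 1 on the log2 scale for Cyp4a10, Cyp4a14 and Cyp4a12b, so a p that missed the threshold does not show that the genotypes responded alike. The spread of Cyp4a10 and Cyp4a14 was wide. The within-group SD of log2(FPKM + 1) was 0.89 for Cyp4a14, 0.63 for Cyp4a10, 0.51 for Cyp4a32 and 0.47 for Cyp4a12b, against a median of 0.17 over all tested genes.

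The order of the 4 group means was the same for Cyp4a10 and Cyp4a14, with Pctp-/- on MCD highest, then WT on MCD, Pctp-/- on chow and WT on chow. For Cyp4a14 and Cyp4a31 the neighbours within a diet overlapped and the diets did not. For Cyp4a10 the ranges of Pctp-/- and WT mice on MCD were apart, and those of the other neighbours overlapped. Cyp4a12a and Cyp4a12b ran from WT on chow through Pctp-/- on chow and WT on MCD to Pctp-/- on MCD, again with overlap within a diet only. Cyp4a32 ran from WT on chow through Pctp-/- on chow and Pctp-/- on MCD to WT on MCD, and only the last pair of neighbours did not overlap.

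FPKM values are per length, so the 6 genes were set side by side as shares of their summed FPKM. On chow Cyp4a12a made up 63.5 ± 1.83% of the sum in WT and 68.8 ± 11.9% in Pctp-/- mice (SD, n = 3), and Cyp4a32 made up 24.6 ± 1.57% and 17.1 ± 7.39%. On MCD Cyp4a14 made up 72.1 ± 3.07% in WT and 68.7 ± 5.57% in Pctp-/- mice (SD, n = 3), from 2.63 ± 1.56% and 3.01 ± 2.47% on chow. Cyp4a12a had 10.7 ± 1.34% and 7.92 ± 2.54% of the sum on MCD. The sum itself was 319 ± 37.7 FPKM on chow and 443 ± 106 on MCD in WT mice, with overlapping values. The sum in Pctp-/- mice was 288 ± 50.7 and 599.9 ± 197 (SD, n = 3), without overlap. The length that the authors used for each gene is not given in the sources used here, and the annotated transcript of Cyp4a32 has 1530 bases for 1527 coding bases, so its level relative to the others depends on that length.

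**Figure D3:**
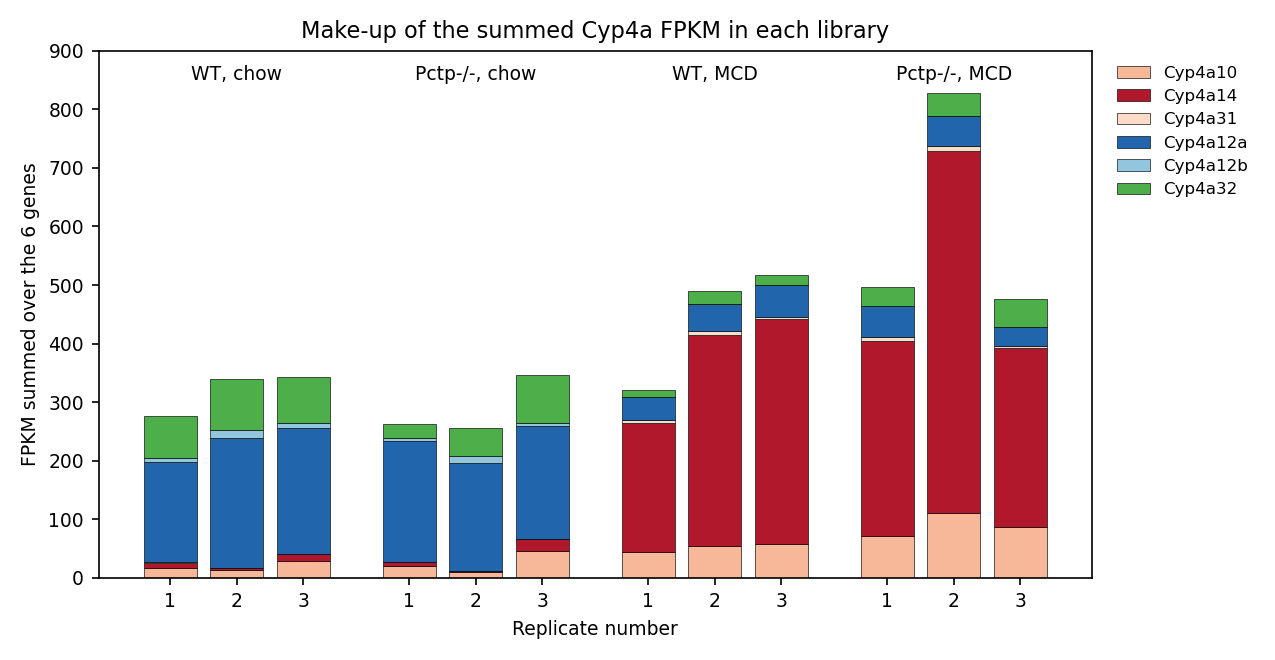
FPKM of the 6 Cyp4a genes stacked for each of the 12 libraries, with the replicate number on the horizontal axis and summed FPKM on the vertical axis. Cyp4a12a is the largest block in each chow library and Cyp4a14 in each MCD library, and the highest sum, 827 FPKM, is in replicate 2 of Pctp-/- mice on MCD.

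Along the chromosome the genes that rose were neighbours among the 6. Cyp4a14, Cyp4a10 and Cyp4a31 take places 3, 4 and 5 of the 6, with gaps of 22.1 kb and 29.999 kb between them. Cyp4a12a and Cyp4a12b lie on 1 side, and Cyp4a32, which is 21.953 kb beyond the end of Cyp4a31, on the other. With 6 genes this is a description of 1 cluster, in which Cyp4a31 had to rise to be tested.

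**Figure D4:**
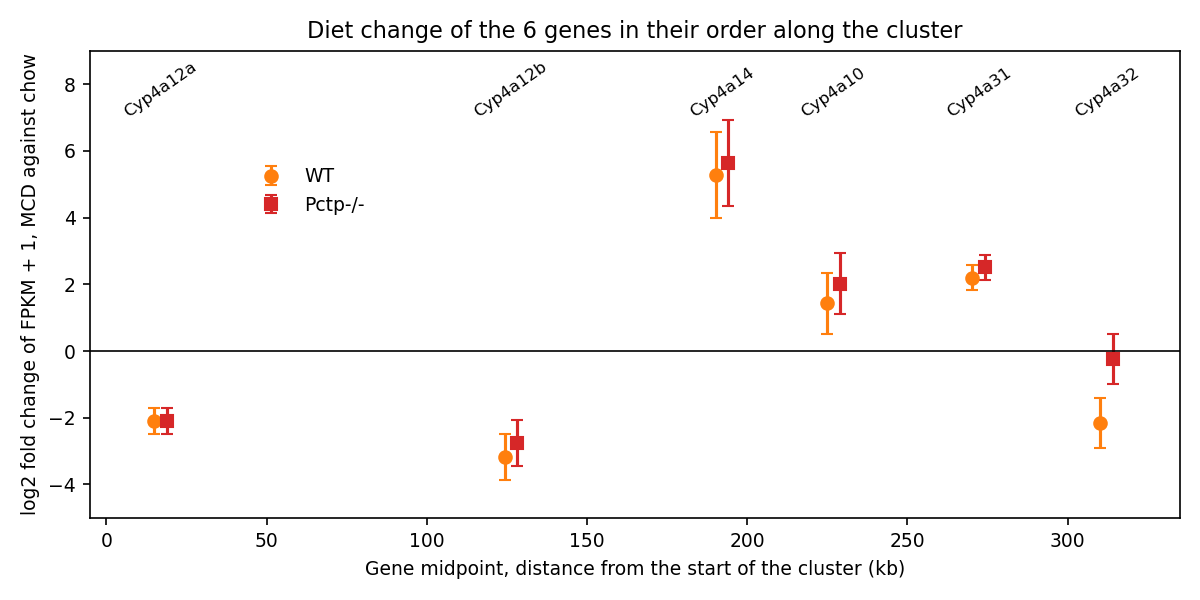
Log2 fold change of FPKM + 1 on MCD against chow, with 95% confidence intervals, for each Cyp4a gene at the distance of its midpoint from the start of the cluster in kb, in WT mice (circles) and Pctp-/- mice (squares), drawn slightly side by side. Cyp4a14, Cyp4a10 and Cyp4a31 are above 0 in both genotypes, and the other 3 genes are below 0, with an interval that includes 0 for Cyp4a32 in Pctp-/- mice. Cyp4a31 and Cyp4a12b had to differ by diet to be tested.

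Other genes of the same family and pathway were counted from lists, with calls by the same limma fit. The share over all tested genes to set beside each list was 34.5% higher and 22.5% lower on MCD in WT mice. For Pctp-/- mice it was 26.0% and 24.4%. Of 17 other Cyp4 genes, 7 passed the filter, and on MCD 2 were called higher and 5 lower in each genotype. The median log2 fold change was -1.32 in WT and -1.21 in Pctp-/- mice, against 0.11 and 0.04 over all tested genes. The largest fall was that of Cyp4f14, a leukotriene omega-hydroxylase, from 234 ± 23.1 to 48.1 ± 12.4 FPKM in WT mice (SD, n = 3). Cyp4f15 changed by -1.52, Cyp4f17 by -1.48 and Cyp4v3 by -1.32 on the log2 scale in WT mice, while Cyp4b1 rose by 1.00 and Cyp4f16 by 0.69. Outside the Cyp4a cluster most tested Cyp4 genes moved in the direction of Cyp4a12a, not of Cyp4a14.

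Of 4 electron donors of the microsomal P450 system, 0 rose. Por, the reductase that Cyp4a enzymes depend on, was at 138 ± 24.3 FPKM in WT mice on chow and 109 ± 26.9 on MCD (SD, n = 3), with a log2 fold change of -0.36 (limma adjusted p = 0.19) in WT and -0.23 (limma adjusted p = 0.42) in Pctp-/- mice. Cyb5r3, the cytochrome b5 reductase, had log2 fold changes of -1.06 and -0.99 in WT and Pctp-/- mice, and Cyb5b had -0.45 in Pctp-/- mice. For the steps after the P450, which oxidise the hydroxy acid and shorten the diacid, 22 of 23 genes were tested. In WT mice 2 rose, 11 fell and 9 were not called, and in Pctp-/- mice 4 rose, 11 fell and 7 were not called. The thiolase Acaa1b went from 680.3 ± 101 to 189.6 ± 27.4 FPKM in WT mice (SD, n = 3). Slc27a2, an acyl-CoA synthetase and fatty acid transporter, had a log2 fold change of -1.52 in WT mice. Aldh1a1, an aldehyde dehydrogenase, was the largest riser of this list in WT mice at 1.29, and the peroxisomal thioesterase Acot3 was the largest in Pctp-/- mice at 2.66.

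Ppara, the gene for the receptor PPARalpha, was at 37.2 ± 8.22 FPKM in WT mice on chow and 26.0 ± 1.72 on MCD (SD, n = 3), a log2 fold change of -0.47 (SE 0.18, limma adjusted p = 0.043). In Pctp-/- mice it was at 29.5 ± 6.45 and 34.4 ± 6.32 FPKM (SD, n = 3), a log2 fold change of 0.22 (limma adjusted p = 0.34). It was not called between genotypes on either diet. The difference of its MCD effect, Pctp-/- minus WT, was 0.70 (SE 0.26, unadjusted p = 0.020, limma adjusted p = 0.24) and was not called. Of 11 genes for PPARs, their RXR partners and coactivators, 2 rose and 6 fell on MCD in WT mice, and 2 rose and 4 fell in Pctp-/- mice. Over all tested genes 57.0% were called in WT and 50.3% in Pctp-/- mice. Rxra, the main liver partner of PPARalpha, had a log2 fold change of -0.996 in WT mice and Ppard of -0.84, while the coactivator gene Ppargc1a rose by 1.04.

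PPARalpha targets other than Cyp4a genes were split. Of 54 listed, 50 were tested, and in WT mice on MCD 15 rose, 19 fell and 16 were not called, with a median log2 fold change of -0.16. In Pctp-/- mice 15 rose, 16 fell and 19 were not called, with a median of 0.02. Those that rose included Fgf21, a liver hormone of fasting, by 6.23 in WT and 4.48 in Pctp-/- mice on the log2 scale, and Cd36, a fatty acid transporter, by 5.04 and 4.72. Vnn1, a pantetheinase, rose by 3.25 and 3.51. Those that fell included the cytosolic thioesterase Acot1, with log2 fold changes of -2.905 and -3.05, and Retsat, the retinol saturase, with -2.47 and -2.58. Between genotypes on MCD 1 of 50 was called, Fgf1, a fibroblast growth factor, which was higher in Pctp-/- mice by 0.77 on the log2 scale. There 9 of 50 had an unadjusted p under 0.05 in limma, against 0.818% called and 16.3% at that p over all tested genes. On chow 0 of 50 were called in limma, with 1 of 50 at an unadjusted p under 0.05, against 0.136% and 6.98%.

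Cyp4a12a belongs among genes that are expressed more in livers of male than of female mice, so lists of such genes were read beside it. All mice here were male. Of 24 tested male-typical genes other than Cyp4a genes, 23 fell and 0 rose on MCD in WT mice, and 22 fell and 0 rose in Pctp-/- mice, with median log2 fold changes of -1.96 and -1.73. Only 20 of the 24 were above the minimum FPKM on both diets, and the others passed the filter through a single diet. Of these 20, 20 fell in WT mice and 19 in Pctp-/- mice, with medians of -1.90 and -1.73. Elovl3, a fatty acid elongase, went from 120.2 ± 39.8 to 8.89 ± 3.79 FPKM in WT mice (SD, n = 3), C6, a complement component, from 92.6 ± 10.3 to 7.11 ± 0.854, and Susd4 from 17.6 ± 4.16 to 0.191 ± 0.0939. Cyp4a12a, at -2.10, lay near the median of this list. Of 21 tested female-typical genes, 19 rose and 0 fell in WT mice and 20 rose and 0 fell in Pctp-/- mice, with medians of 2.37 and 4.08. Only 10 of the 21 were above the minimum FPKM on both diets, and the others had to rise to be tested. Of these 10, 8 rose in WT mice and 9 in Pctp-/- mice, with medians of 1.92 and 2.66. Sult1e1, the estrogen sulfotransferase, was at 0.0959 ± 0.0265 FPKM on chow and 185.8 ± 23.9 on MCD in WT mice (SD, n = 3). This chow mean, like the MCD mean of Susd4 in WT mice, was below the minimum FPKM. Between genotypes 0 of 24 male-typical genes were called on either diet in limma, with 2 of 24 at an unadjusted p under 0.05 on each. Over all tested genes that share was 6.98% on chow and 16.3% on MCD. On MCD 3 of 21 female-typical genes were called, against 0.818% of all tested genes. All were higher in Pctp-/- mice, among them Sult3a1 by 3.01 and Cyp3a41a by 2.51 on the log2 scale. Of the 10 above the minimum FPKM on both diets 0 were called, so these 3 calls were of genes that passed the filter only through their MCD libraries.

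**Figure D5:**
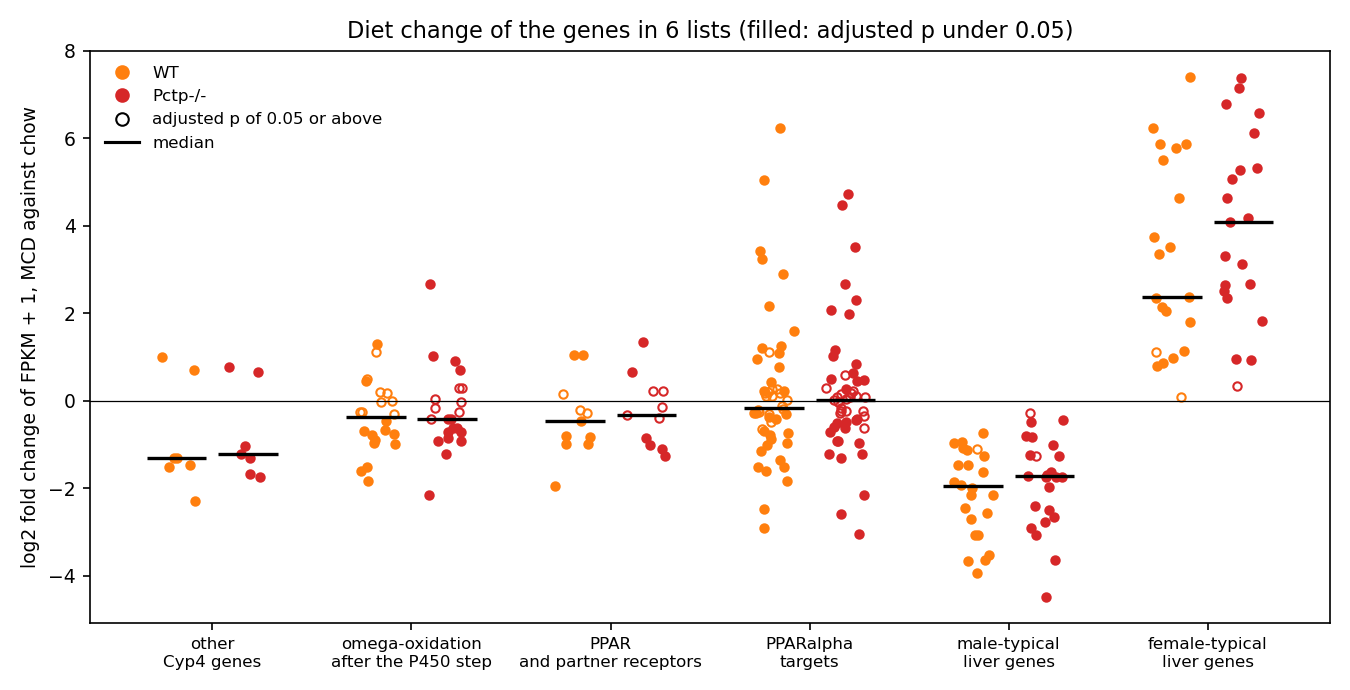
Log2 fold change of FPKM + 1 on MCD against chow for the tested genes of 6 lists other than the Cyp4a genes, in WT (orange) and Pctp-/- mice (red), with filled points at an adjusted p under 0.05, open points above it and a line at each median. PPARalpha targets lie on both sides of 0, 23 of 24 male-typical genes are called lower in WT mice and 19 of 21 female-typical genes are called higher. Among genes above the minimum FPKM on both diets, these are 20 of 20 and 8 of 10.

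Many P450 genes are expressed most around the central vein of the liver lobule, so genes of the liver zones were also counted. On MCD 7 of 15 tested pericentral genes rose and 3 fell in WT mice, and 8 rose and 2 fell in Pctp-/- mice. Beside this and the counts that follow, 34.5% of all tested genes were called higher and 22.5% lower in WT mice. In Pctp-/- mice these shares were 26.0% and 24.4%. Of 16 periportal genes, 3 rose and 10 fell in WT mice, and 2 rose and 7 fell in Pctp-/- mice. Of 7 macrophage markers all 7 rose in WT mice and 3 rose in Pctp-/- mice, and their summed FPKM ranged over 49.9 to 131.8 in the chow libraries, 159.8 to 264 in WT and 131.0 to 138.7 in Pctp-/- mice on MCD. The 7 stellate cell markers summed to 33.5 to 60.4 FPKM in chow libraries and 136.7 to 199.96 in MCD libraries. Of them 4 rose in WT mice (median log2 fold change 0.66) and 3 in Pctp-/- mice (median 0.07), and 0 fell. The sum of 6 endothelial markers was 46.5 to 68.4 and 64.4 to 90.8, that of 5 cholangiocyte markers 10.6 to 19.5 and 13.7 to 25.5, and that of 5 lymphocyte markers 0.567 to 2.79 and 1.44 to 2.18. The 6 hepatocyte markers summed to 39489 to 44624 FPKM in chow and 52819 to 73971 in MCD libraries, but 1 of 6 rose in each genotype, while 2 fell in WT mice (median log2 fold change -0.22) and 1 in Pctp-/- mice (median 0.05). The difference of the MCD effect between genotypes was called in limma for 0 of 7 macrophage and 0 of 7 stellate cell markers. In each of these lists 0 of 7 had an unadjusted p under 0.05. Over all tested genes 0.0963% were called and 15.1% had such an unadjusted p. No marker of any list was at 0 in a whole group. The part of cell composition in the changes of the Cyp4a genes was not tested.

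For each Cyp4a gene the 3 other genes with the most similar profile over the 12 libraries were found by the root mean square difference of log2(FPKM + 1), each profile centred on its mean. For Cyp4a14 these were Cyp2a22 (0.62), Cd36 (0.63) and the serum amyloid P gene Apcs (0.69). For Cyp4a10 they were Mup-ps12 (0.42), Rdh16f2 (0.45) and Nipal1 (0.46), and for Cyp4a31 they were Ak7 (0.20), Ugt2b37 (0.21) and Vil1 (0.21). Cyp4a12a was most like the complement gene C9 (0.21), Gm4737 (0.23) and Tlcd2 (0.23). Cyp4a12b was most like Cyp7b1, an oxysterol hydroxylase (0.31), Hnf1aos1 (0.39) and the growth factor receptor gene Egfr (0.40), and Cyp4a32 was most like Cyp2d37-ps (0.37), Slc17a2 (0.37) and Pcsk4 (0.40). Among the Cyp4a genes themselves the closest pairs were Cyp4a12a with Cyp4a12b (0.62) and Cyp4a10 with Cyp4a31 (0.64), and the farthest was Cyp4a14 with Cyp4a12b (4.34). These distances describe 12 libraries that share 2 diets and carry no test. Over the alternatives, as few as 0 of the 3 named genes stayed for Cyp4a31, Cyp4a12b and Cyp4a32. The lowest number was 1 for Cyp4a10 and Cyp4a12a and 2 for Cyp4a14.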

How the data were processed

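RNA-seq of liver from 12 mice was used, 3 in each of 4 groups of genotype and diet taken from the labels. Per gene, the authors deposited FPKM values, with a second table with whole numbers of reads and percentages of mapping and quality, used here for depth and mapping only. The submitters' processing notes name the genome build mm10, and the aligner, the counting tool and the annotation are not given in the sources used here. Symbols and positions came from GENCODE M21, which held 34490 of the 35275 identifiers. FPKM values are not counts, so the Wald test named by the study was replaced. The 12466 genes whose mean FPKM reached 0.5 were fitted with limma 3.58.1 in R 4.3.3 on log2(FPKM + 1), with 1 mean per group, a mean-variance trend, all libraries sharing the spread, two-sided tests and Benjamini-Hochberg adjustment over all tested genes. The fit was tested on simulated data.

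The members and lists were chosen with earlier results of these data known. The 6 Cyp4a genes, Por, Ppara and Pctp were always eligible to be named, and from each list the called genes, at most 4 by size in each direction. No pair of libraries held identical values. Replicate numbers mark different mice and were not treated as pairs. Coding sequences were aligned with mafft 7.526. The stretches printed were read from the GENCODE transcripts and genome, and the 60-base stretch is the coding window with the most differences. No column of the authors' own comparisons was used. Some listed genes are not reported here by name.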

Additional observations from a re-analysis of the deposited data

Results flagged for a closer look

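Cyp3a41a, a female-typical P450 gene read beside the Cyp4a genes, was the only listed gene whose MCD effect differed between the genotypes at an adjusted p under 0.05. It was listed at 0 FPKM in every chow library, at 2.13 to 4.97 in WT and at 19.9 to 33.4 in Pctp-/- mice on MCD. As its chow values are all 0, the difference of the diet effects is the same quantity as the genotype difference on MCD and no separate evidence. The difference of the log2 changes, Pctp-/- minus WT, was 2.51 (SE 0.31, limma adjusted p = 0.014). It ran from 2.26 to 2.80 over 22 alternatives, of which 19 passed the threshold. The exceptions were a pseudocount of 0.1 and leaving out replicate 2 of the WT chow or of the Pctp-/- MCD mice, with an adjusted p of up to 0.062. A near-identical neighbour, Cyp3a41b, can share its reads.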

How the results depend on the processing

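Each count of called Cyp4a genes was recomputed under 11 alternatives and with each of the 12 libraries left out. Between genotypes the count stayed at 0 on both diets. In WT mice on MCD it ran from 4 to 6, and without single libraries from 5 to 6. In Pctp-/- mice it was 5 without any single library, and 3 where the mean FPKM had to reach 5, which leaves 4 of the 6 genes in the test. Replicate numbers mark different mice, and the deviations of same-numbered libraries from their group means had correlations of -0.097 to 0.20 over the 4 comparisons of groups. A library correlated best with its own number in 13 of 24 cases, where 8 would be expected with 3 candidates each, and in 5 of 6 between the WT groups. With a replicate block the difference of the MCD effect was called for 1 gene, Cyp4a32 (1.92, limma adjusted p = 0.0497), and the block changed no other count of Cyp4a genes.

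Signs turned only for changes that were not called. Under quantile normalization and median-of-ratios scaling Cyp4a12a became 0.056 and 0.051 between genotypes on MCD and 0.14 and 0.090 for the difference of effects. Over the fits that left out 1 library, the log2 fold change on chow between genotypes ran from -0.37 to 0.71 for Cyp4a10, -0.73 to 0.59 for Cyp4a14 and -0.17 to 0.019 for Cyp4a12a. On MCD it ran from -0.022 to 0.34 for Cyp4a31, -0.19 to 0.17 for Cyp4a12a and -0.12 to 0.0041 for Cyp4a12b. For Cyp4a32 on MCD against chow in Pctp-/- mice it ran from -0.68 to 0.19, and the difference of effects ran from -0.25 to 1.07 for Cyp4a14 and -0.14 to 0.22 for Cyp4a12a. The cause was not tested.

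Calls over all genes between genotypes were unstable. On chow 17 became 4 with only the libraries compared and 32 with the block, and 8 (without replicate 2 of the Pctp-/- chow mice) to 34 (without replicate 1 of the WT chow mice). On MCD 102 became 55 with median-of-ratios scaling and 19 with only the libraries compared, and 27 (without replicate 2 of the Pctp-/- MCD mice) to 173 (without replicate 3 of the WT MCD mice). For the difference of effects 12 became 3 with a pseudocount of 0.1 and 59 with the block, and 0 (without replicate 2 of the Pctp-/- MCD mice) to 60 (without replicate 1 of the WT chow mice). The diet counts of 7110 and 6276 became 4448 and 4047 at a minimum mean FPKM of 5, where fewer genes were tested. The 3 most similar genes stayed the same in 52 recomputations and changed in 60. Depth per gene is unknown beyond the reads of each library.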
